A study of Mus musculus with 7 samples.

Results

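The genes followed here are 8 genes through which cells turn thyroid hormone into transcription. They were taken from a written list of receptors, coregulators and an activating enzyme and are 8 of the 49315 genes counted. The rule for the list uses no measured value, but earlier results of these data were known when it was written. They were measured by RNA-seq in primary oligodendroglia from the brains of newborn mice of both sexes, in 7 libraries. The cells were shaken off mixed glial cultures, depleted of microglia and differentiated for 6 days in SATO medium, which contained triiodothyronine and thyroxine. The 4 control libraries carried wildtype Klf13 and the 3 knockout libraries came from pups in which Klf13, which encodes a Krüppel-like transcription factor, was deleted in every tissue from the start. Both groups thus received the hormone, and no culture without it was among the libraries. The labels call the libraries of a group biological replicates and do not say whether cells of several pups were pooled.

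Thyroxine is converted to the active hormone triiodothyronine by the deiodinase encoded by Dio2, which in brain is known mainly from astrocytes. Triiodothyronine binds the receptors TRα (Thra) and TRβ (Thrb), which sit on DNA mostly as pairs with a retinoid X receptor (Rxra, Rxrb, Rxrg). Without hormone the receptors recruit corepressors such as NCOR1 and, in brain, Hairless (Hr), and with hormone these are exchanged for coactivators. In the oligodendrocyte lineage, thyroid hormone is known for ending the division of precursors and promoting myelin gene expression, and RXRγ is known as a receptor of oligodendroglial cells.

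Each library held between 24507471 and 59596479 counts on genes. Levels are given as normalized counts, that is counts scaled to a common library size, and a gene is said to pass, or to be higher or lower in the knockout, where its p adjusted over all tested genes is no larger than 0.05. Klf13, the targeted gene, stood at 802 to 961 normalized counts in the knockouts and at 10670 to 12000 in the controls. Oligodendrocyte marker genes were present in every library, and 6 of 7 were lower in the knockouts. Their summed level was 53400 to 60100 normalized counts per kb of exon there and 174000 to 204000 in the controls. The astrocyte markers (20600 to 28300 in the controls, 40400 to 48000 in the knockouts, 6 of 6 higher) and the neuron markers (3370 to 3910 and 5490 to 7610, 6 of 6 higher) stood above the controls in every knockout library. Of the markers of oligodendrocyte precursors 2 of 5 were higher, with sums of 17100 to 18100 and 20500 to 21700. Of the 6 microglia markers none passed in edgeR, also at an unadjusted p of 0.05, and their sum reached 28300 in control replicate 3 and lay between 5960 and 11400 in the other 6 libraries. Of the 6 fibroblast and mural markers 1 was lower, and 5 had an unadjusted p under 0.05 (median log2 fold change -2.07). Their sums were 1900, 1270, 6760 and 5530 in control replicates 1 to 4 and 504 to 1350 with the knockout. Endothelial markers summed to 21.1 to 130, 1 of the 3 tested was lower, and Cldn5 was at or near 0 in all libraries. In such bulk samples, fewer cells of a type and less RNA per cell cannot be told apart.

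Of the 8 genes, 2 had an adjusted p no larger than 0.05 for knockout against control in edgeR's quasi-likelihood test, and both were higher in the knockout. These were Dio2 (2.1-fold) and Rxrg (1.93-fold), the 2 genes of the 8 with the lowest levels. At this threshold 23.8% of the 18352 tested genes passed, 11.6% as higher and 12.2% as lower, so that 2 of 8 is near the rate among all genes. Dio2 alone also met the fold threshold of the study, a log2 fold change of 1 or more in either direction, which 7.05% of the tested genes met, 3.97% as higher and 3.08% as lower. The groups did not overlap for 3 of the 8 genes, Dio2, Rxrg and Ncor1, which were all higher, while 36.2% of all tested genes showed no overlap, 18.3% as higher and 18% as lower. The median log2 fold change of the 8 genes was -0.0035 and that of all tested genes -0.0037. The genes that encode the receptors with the highest levels, Thra, Rxra and Rxrb, as well as Thrb, Hr and Ncor1, did not pass.

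Because Dio2 and Rxrg were the 2 genes that passed, the sequence before their starts is shown first. Each line gives the 250 bases before a RefSeq transcription start on the strand of the gene, in the build GRCm38.p6. Capitals mark letters that match a Klf binding word, the cAMP response word TGACGTCA or the nuclear receptor half-site AGGTCA. All words were searched on both strands, and the Klf words were the word ACGCCC, the word ACACCC, the word ACTCCC, the word CCGCCC, the word CCACCC and the word CCTCCC.
Rxrg, first start, chr1:167598112-167598361, plus strand: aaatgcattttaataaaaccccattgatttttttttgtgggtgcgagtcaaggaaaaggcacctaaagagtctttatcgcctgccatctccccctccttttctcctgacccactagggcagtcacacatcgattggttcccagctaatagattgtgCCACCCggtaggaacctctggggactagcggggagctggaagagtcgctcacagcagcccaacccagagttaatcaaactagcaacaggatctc
Rxrg, second start, chr1:167618015-167618264, plus strand: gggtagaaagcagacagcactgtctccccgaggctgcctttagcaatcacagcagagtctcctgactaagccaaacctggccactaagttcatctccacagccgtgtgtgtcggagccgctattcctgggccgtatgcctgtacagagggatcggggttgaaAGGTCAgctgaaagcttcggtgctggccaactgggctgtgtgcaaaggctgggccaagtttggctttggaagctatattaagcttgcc
Dio2, chr12:90739039-90739288, minus strand: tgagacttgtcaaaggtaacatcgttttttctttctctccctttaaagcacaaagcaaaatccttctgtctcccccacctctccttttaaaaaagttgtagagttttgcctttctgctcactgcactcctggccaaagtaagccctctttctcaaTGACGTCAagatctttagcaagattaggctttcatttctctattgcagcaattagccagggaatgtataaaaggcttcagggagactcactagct
The first Rxrg window held 1 Klf word, CCACCC, 94 to 89 bases before the start, and the second, which lies inside the gene, held none. The second window held 1 half-site, AGGTCA, 88 to 83 bases before its start. The Dio2 window held neither a Klf word nor a half-site and carried TGACGTCA 95 to 88 bases before the start. Klf words occurred in 72.6% of the 32851 windows of this length in the RefSeq table, the half-site in 14% and TGACGTCA in 1.55%. None of the matches shown overlapped another. Windows were found for 6 of the 8 genes, 11 in all. Hr and Thra had no entry among the windows used here, which does not mean that they lack a RefSeq start. Of the windows of the other 4 genes, both Rxra windows (5 and 4), both Rxrb windows (2 and 6), 1 of Thrb (4) and 1 of Ncor1 (4) held Klf words. Half-sites were also found in genes that did not pass, 2 in the second Rxra window and 1 in the first Thrb window. A match of letters describes the window and does not show binding.

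Dio2 (ENSMUSG00000007682) lies on the minus strand of GRCm38 chromosome 12 from 90724554 to 90738438, and the RefSeq start used above lies outside this span. It had 146, 168, 156 and 153 normalized counts in control replicates 1 to 4. In knockout replicates 1 to 3 it had 336, 263 and 380. All 3 knockout libraries lay above all 4 controls, and the controls differed among themselves by no more than 1.15-fold. For Dio2, the log2 fold change was 1.07 (SE 0.148, 95% CI 0.723 to 1.41, edgeR adjusted p = 0.00349). Dio2 passed in 18 of 18 alternatives, among them each omission of a library, with log2 fold changes from 0.948 to 1.2. It fell short of the fold threshold without knockout replicate 3 (0.948) and, barely, with the ribosomal covariate described for Rxrb (0.998). The knockout library with the lowest Dio2 value, replicate 2, had the highest sums of astrocyte and neuron markers (48000 and 7610), while among the controls replicate 2 had the highest values of both Dio2 and the astrocyte markers (168 and 28300). The part of these cells in the result was not tested. Dio2 shares 100 bases of exon, 1.72% of its length, with the antisense gene Gm26512, which had means of 4.0 and 13.7 normalized counts. The strand setting of the counting is not given in the sources used here, and the whole of the antisense level is small beside that of Dio2.

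Rxrg (ENSMUSG00000015843), on chromosome 1 from 167598384 to 167639623, encodes RXRγ. Its control libraries held 48.6, 36.2, 37.7 and 34.6 normalized counts. The knockout libraries held 81.2, 90.1 and 55.6. Every knockout library lay above every control, and the smallest gap was that between knockout replicate 3 and control replicate 1. For Rxrg, the log2 fold change was 0.945 (SE 0.234, 95% CI 0.4 to 1.49, edgeR adjusted p = 0.0258). This rests on 33 to 37 raw counts in each control library and on 45, 131 and 73 in the knockout libraries. The higher level of Rxrg kept its direction in every alternative and passed in 11 of 18. With the replicate number as a block it was 0.88 with an adjusted p of 0.0709 in edgeR, and with control replicates 1 and 2 alone 0.835 with an adjusted p of 0.141. Leaving out control replicate 2, 3 or 4 gave adjusted p-values of 0.0594, 0.0514 and 0.0584 in edgeR, and leaving out knockout replicate 1 or 2 gave 0.0782 and 0.102. Knockout replicate 2, with the highest Rxrg value, also had the highest sums of neuron, astrocyte and precursor markers (7610, 48000 and 21700). Control replicate 1, with the highest Rxrg value of the controls, had their lowest neuron sum (3370). Its precursor sum (17100) was also their lowest, shared with control replicate 3, and its astrocyte sum (26200) lay within their range. The part of these cells in the difference was not tested.

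By level per length, Rxrg was the least abundant of the 3 RXR genes. Rxrg made up 2.82%, 1.71%, 1.44% and 2.01% of the RXR transcripts, as TPM, in control replicates 1 to 4. The knockout replicates stood at 4.5%, 3.73% and 2.98%. All knockouts lay above the controls, with knockout replicate 3 next to control replicate 1. Between libraries of the same replicate number, the knockout share was higher by 1.68, 2.02 and 1.54 percentage points. The means were 1.99% ± 0.6 (SD, n = 4) and 3.74% ± 0.76 (SD, n = 3), and the two-sided exact permutation test over 35 splits, which takes no account of the replicate number, gave p = 0.0571, the smallest it can give, and an adjusted p of 0.0857 over 3 such quantities. Rxra held 43.8% to 56.3% of the RXR transcripts in the controls and 40.6% to 59% in the knockouts, and Rxrb 41.7% to 54.5% and 38% to 55.7%. Nearly all RXR transcripts thus came from Rxra and Rxrb in both groups.

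**Figure D1:**
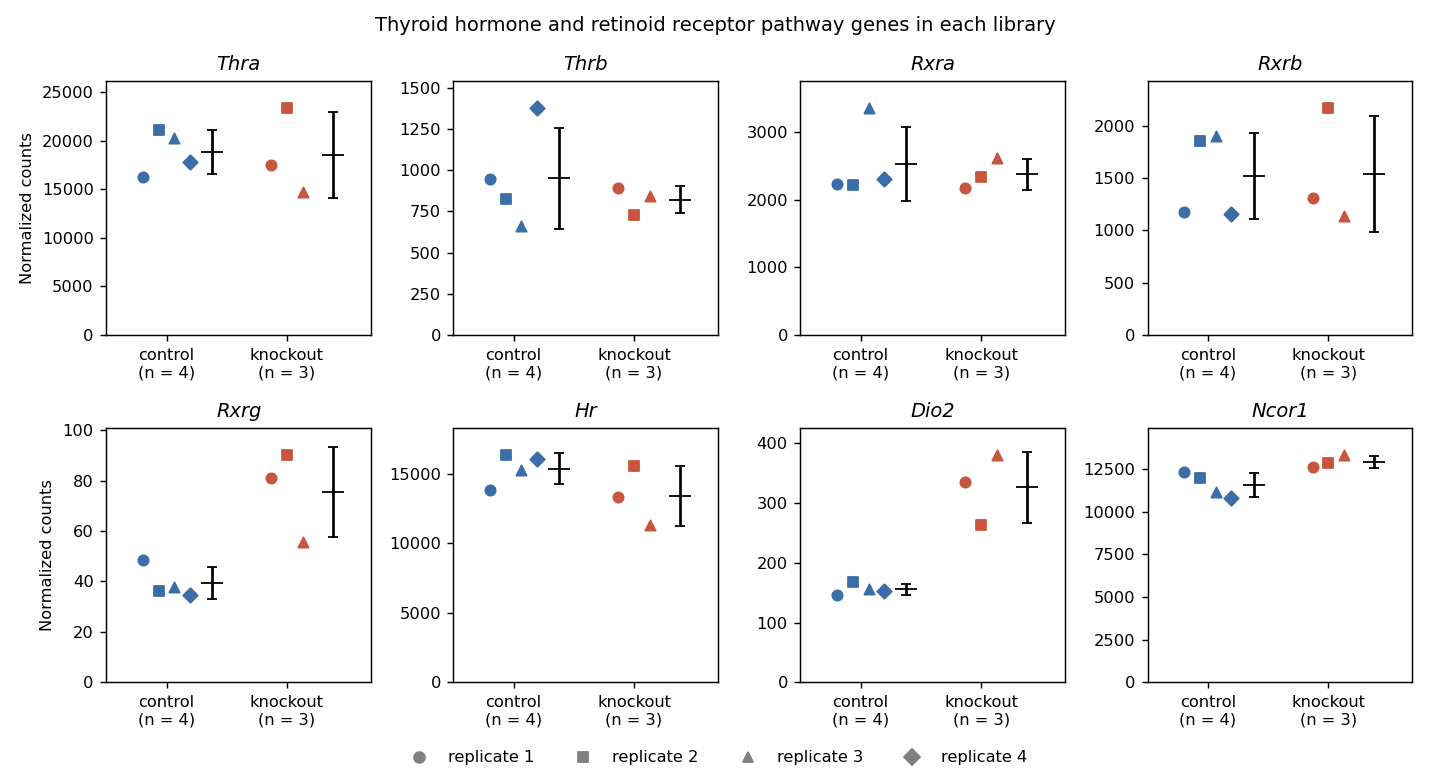
Normalized counts of the 8 genes in each library (y axis, from 0), for the 4 control libraries (blue) and the 3 knockout libraries (red), with the mean and SD of each group in black and the marker shape giving the replicate number. The groups do not overlap for Rxrg, Dio2 and Ncor1, and the knockout values of Dio2 (263 to 380) stand apart from the controls (146 to 168).

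Thra (ENSMUSG00000058756), on chromosome 11 from 98740638 to 98769006, encodes the thyroid hormone receptor that prevails in brain. Its levels were 16210, 21090, 20230 and 17780 normalized counts for the controls, against 17530, 23330 and 14720 for the knockouts. The knockout libraries spanned the range of the controls on both sides. For Thra, the log2 fold change was -0.02 (SE 0.164, 95% CI -0.406 to 0.36, edgeR adjusted p = 0.939), and its sign changed, among others, with upper quartile factors (0.0138) and with total counts only (0.0285). The gene encodes both a hormone-binding receptor and a splice form that does not bind hormone, which gene counts do not separate. It shares 263 bases of exon (5.7%) with the antisense gene Nr1d1, which stood at 1222 and 1201 normalized counts.

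Thrb (ENSMUSG00000021779), on chromosome 14 from 17660960 to 18038088, encodes the second receptor and is itself known to respond to the hormone in some tissues. Its levels were 947, 827, 658 and 1375 normalized counts for the controls, against 890, 728 and 846 for the knockouts. All knockout values lay within the range of the controls, which control replicate 4 widened. For Thrb, the log2 fold change was -0.21 (SE 0.235, 95% CI -0.763 to 0.334, edgeR adjusted p = 0.564), and without control replicate 4 it was 0.04. The log2 ratio of Thra to Thrb, as TPM, averaged 4.86 ± 0.563 (SD, n = 4) in the controls and 4.98 ± 0.466 (SD, n = 3) in the knockouts. This difference was smaller than the spread between libraries (two-sided exact permutation test, p = 0.686).

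Rxra (ENSMUSG00000015846), on chromosome 2 from 27676440 to 27762957, encodes RXRα. Its levels were 2236, 2207, 3346 and 2305 normalized counts for the controls, against 2167, 2332 and 2615 for the knockouts. Control replicate 3, the library with the highest microglia and fibroblast markers, stood above all the others, and the part of these cells was not tested. For Rxra, the log2 fold change was -0.09 (SE 0.16, 95% CI -0.462 to 0.283, edgeR adjusted p = 0.735), and without this library 0.08. Rxrb (ENSMUSG00000039656), on chromosome 17 from 34031812 to 34038393, encodes RXRβ. Its levels were 1180, 1858, 1899 and 1157 normalized counts for the controls, against 1307, 2166 and 1142 for the knockouts. Each group fell into high and low libraries with nothing between. For Rxrb, the log2 fold change was 0.02 (SE 0.279, 95% CI -0.637 to 0.669, edgeR adjusted p = 0.976).

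The libraries in which Rxrb was high were those with the smallest share of counts on Gm42418, Gm23935 and Lars2. Reads of ribosomal RNA gather on these genes. The share on them stands in here for ribosomal RNA, which was not measured itself. Counts on these genes took 14.1%, 6.03%, 6.5% and 15% of the control libraries. They took 17%, 7.56% and 18% of the knockout libraries, so that both classes, above and below 10%, hold libraries of both groups. Rxrb stood at 1858 to 2166 normalized counts in the 3 libraries below 10% and at 1142 to 1307 in the 4 above. Thra was likewise higher in all 3 (20230 to 23330 against 14720 to 17780), whereas Thrb was lower in all 3 (658 to 827 against 846 to 1375). Among all tested genes, 6.69% were higher in all 3 of these libraries, with a median GC content of 55.8%, and 5.28% were lower, with a median of 44.1%. GC content is that of the longest annotated transcript of each gene. Rxrb and Thra have GC contents of 61.4% and 59.8%, and Thrb one of 44.1%. Hr and Dio2, with the highest and lowest GC contents of the 8 genes (61.6% and 43.4%), overlapped between the classes. Hr stood at 15240 to 16320 below 10% and at 11300 to 16080 above, and Dio2 at 156 to 263 and 146 to 380. Within the libraries above 10%, the log2 difference of Rxrb between knockouts and controls was 0.06, and within those below, where the knockout group has 1 library, 0.2. With the share of ribosomal RNA as a covariate, the log2 fold change of Rxrb was 0.31 with an adjusted p of 0.0107 in edgeR, and Rxrb passed in none of the other 17 alternatives. Dio2 (1.26 and 0.7) and Rxrg (0.71 and 1.27) had positive differences within both classes. The part of RNA quality or library preparation in these levels was not tested.

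**Figure D2:**
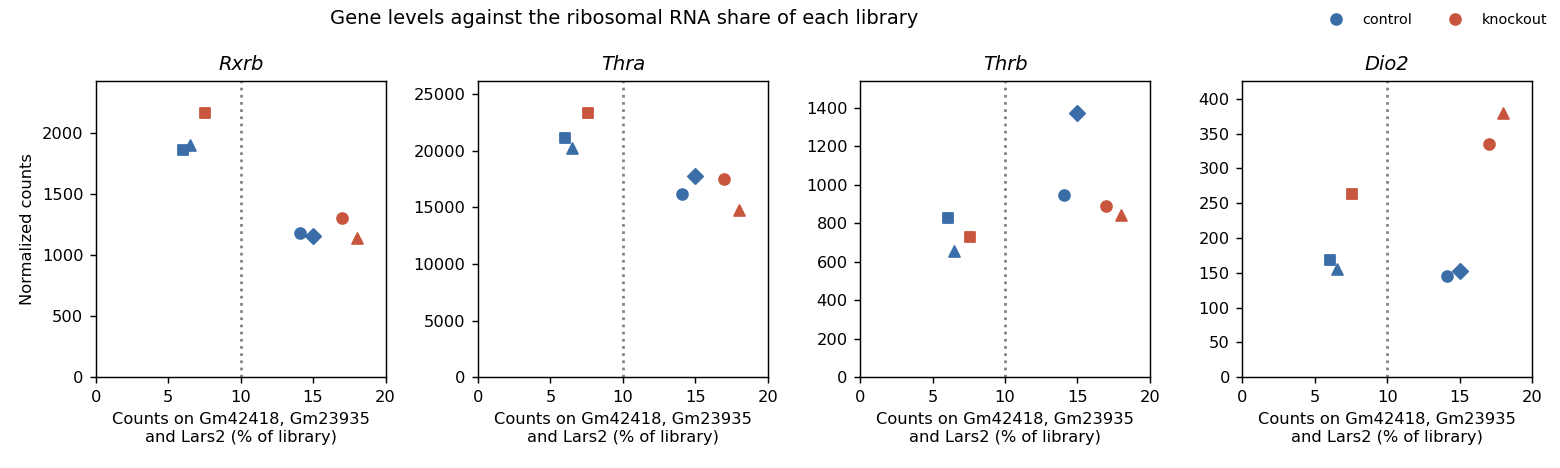
Normalized counts (y axes, from 0) of Rxrb, Thra, Thrb and Dio2 against the share of counts on Gm42418, Gm23935 and Lars2 (x axis, % of library) in the control (blue) and knockout (red) libraries, with the replicate numbers as marker shapes and a dotted line at 10%. Rxrb and Thra stand higher and Thrb stands lower in the 3 libraries left of the line, whereas Dio2 is higher in the knockouts on both sides of it.

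Hr (ENSMUSG00000022096), on chromosome 14 from 70552212 to 70573548, encodes Hairless and is known as a direct target of thyroid hormone in brain. Its levels were 13820, 16320, 15240 and 16080 normalized counts for the controls, against 13340, 15570 and 11300 for the knockouts. Knockout replicates 1 and 3 lay below all controls and replicate 2 lay among them. For Hr, the log2 fold change was -0.2 (SE 0.114, 95% CI -0.464 to 0.0692, edgeR adjusted p = 0.261). It was negative in every alternative and passed in none, with adjusted p-values of 0.0626 to 0.625.

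Ncor1 (ENSMUSG00000018501), on chromosome 11 from 62316426 to 62458541, encodes the corepressor NCOR1. Its levels were 12330, 11970, 11170 and 10800 normalized counts for the controls, against 12600, 12840 and 13300 for the knockouts. Every knockout library lay above every control, by small margins. For Ncor1, the log2 fold change was 0.16 (SE 0.0627, 95% CI 0.0125 to 0.305), and the adjusted p of 0.111 in edgeR missed the threshold, as it did in all 18 alternatives.

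Per length of exon, the order of the 8 genes was the same in both groups: Thra, Hr, Ncor1, Rxra, Rxrb, Thrb, Dio2 and Rxrg. Thra averaged 4080 ± 485 normalized counts per kb (SD, n = 4) in the controls and 4020 ± 952 (SD, n = 3) in the knockouts. Hr, at 2220 ± 164 and 1940 ± 309, was next, so that the transcripts of a corepressor stood second to those of the main receptor. The lowest levels were those of Dio2, at 25.1 to 28.9 in the controls and 45.3 to 65.4 in the knockouts, and of Rxrg, at 15.1 to 21.2 and 24.2 to 39.2. Neighbours in this order did not overlap in range within a group, except for Rxra and Rxrb, which overlapped in both groups.

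**Figure D3:**
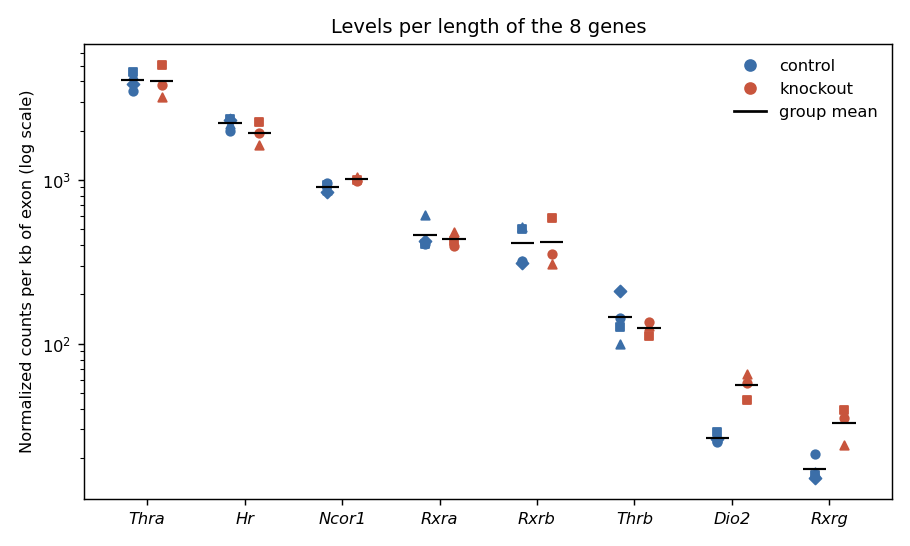
Normalized counts per kb of exon (y axis, log scale) of the 8 genes in the control (blue) and knockout (red) libraries, ordered by the control mean, with group means as lines and marker shapes as replicate numbers. Thra and Hr lead in both groups, and Dio2 and Rxrg are the lowest.

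For the 2 genes that passed, the tested genes with the most similar course over the 7 libraries were sought, by the mean absolute difference of centred log2 CPM values. Those nearest to Dio2 were Mt2, a metallothionein gene (0.0541), Plscr4 (0.0649) and Ddo, which encodes D-aspartate oxidase (0.0739). Mt2 had mean levels of 1837 and 3867 normalized counts in controls and knockouts. Those nearest to Rxrg were C230034O21Rik (0.0964), Gm42517 (0.108) and Gm26777 (0.109). Gm42517, the most abundant of these, had means of 119 and 208. Because these genes were picked for following Dio2 or Rxrg, their own difference between the groups is given as a description.

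Around the 8 genes, 53 other pathway genes were listed by role, of which 51 were tested. Of these 6 were lower and 7 were higher by edgeR's quasi-likelihood test, with a median log2 fold change of 0.03, against 12.2% lower and 11.6% higher among all tested genes. The differences in oligodendrocyte, astrocyte, neuron, and fibroblast and mural markers given above run alongside all these lists, and their part in them was not tested. Of the thyroid hormone metabolism genes 3 of 4 passed, Dio2 among them. Dio3, whose enzyme inactivates the hormone, stood at 45.9, 60.3, 41.2 and 23.4 normalized counts in control libraries, against 150, 249 and 101 with the knockout, without overlap. The log2 fold change of Dio3 was 1.97 (SE 0.392, edgeR adjusted p = 0.0122), and with control replicates 1 and 2 alone it was 1.64 with an adjusted p of 0.0588. The activating enzyme gene Dio2 and the inactivating enzyme gene Dio3 were thus both higher in the knockout. Dio1, which encodes another deiodinase, was barely counted, with 3, 13, 12 and 29 raw counts in the controls and 3 in each knockout library. Its pooled counts relative to library size were 0.175 times those of the controls, with an exact 95% interval of 0.0761 to 0.356 for counting error only. Dio1 passed narrowly (edgeR adjusted p = 0.0472) and did not in limma voom (0.0773), with total counts only (0.0519), with the replicate block (0.136) or without any 1 of the knockout libraries (0.0795 to 0.162). Of the 6 transporter genes 1 passed, as higher, by less than the fold threshold of the study. With the replicate block 3 passed, that gene and, as lower, Slc3a2 and Slc16a10, and none did without control replicate 3, without knockout replicate 2 or 3, or with control replicates 1 and 2 alone. Slc3a2, the heavy chain of amino acid carriers that also move thyroid hormone, had a log2 fold change of -0.42 (edgeR adjusted p = 0.0623). Slc3a2 passed with the replicate block (-0.5, edgeR adjusted p = 0.015), in DESeq2's Wald test (0.0251), with the ribosomal covariate (0.0361), with upper quartile factors (0.0448), with offsets for GC content (0.0269) and without control replicate 4 (0.0451). Slc16a10, which encodes a carrier of aromatic amino acids and thyroid hormone, had a log2 fold change of -0.75 (edgeR adjusted p = 0.45), of -0.77 with the block (0.0429), and of 0.05 without control replicate 3 (0.95). Its 2 highest values, 1456 and 640 normalized counts, were in control replicate 3 and knockout replicate 3, which also had the highest microglia markers (28300 and 11400), and the part of these cells was not tested.

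Of the retinoid receptor genes Rarb, which encodes RARβ, passed beside Rxrg. Rarb stood at 155, 140, 144 and 149 normalized counts for the controls, against 195, 234 and 201 for the knockouts. It had a log2 fold change of 0.52 (SE 0.122, edgeR adjusted p = 0.0221). With the replicate block its adjusted p was 0.0698, and without control replicate 2, knockout replicate 2 or knockout replicate 3 it was 0.0533, 0.0895 and 0.0548. Without a filter it was 0.0653 and with control replicates 1 and 2 alone 0.0906, so that Rarb passed in 12 of 18 alternatives. Rara and Rarg did not pass, at -0.3 and 0.06. None of the 8 other nuclear receptors that pair with RXR passed at the adjusted threshold or at an unadjusted p of 0.05 in edgeR. None did in DESeq2 or limma voom either. Vdr passed, as lower, with the ribosomal covariate (log2 fold change -2.11, edgeR adjusted p = 0.0448). Nr1h3 passed, as higher, without control replicate 3 (0.826, edgeR adjusted p = 0.0484) and with control replicates 1 and 2 alone (1.01, 0.0438). The medians were 0.04 for the 6 retinoid receptor genes and -0.12 for the 8 other nuclear receptors.

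Of the corepressor genes 2 of 8 passed, 1 as lower and 1 as higher. With any 1 library left out no more than 1 passed, with total counts only 1 did, and none did without control replicate 2, knockout replicate 1 or knockout replicate 3. The higher one, Tbl1x, which encodes a subunit of NCOR complexes, had a log2 fold change of 0.3 (SE 0.0749, edgeR adjusted p = 0.0266), which missed the threshold without control replicate 1 or 2 or any 1 of the knockout libraries (0.0503 to 0.0732). Of the coactivator genes 2 of 9 passed, and both shares are near the 23.8% of all tested genes. Ncoa1, which encodes the steroid receptor coactivator SRC-1, rose from 3862, 3627, 3098 and 3435 normalized counts to 4416, 4592 and 4596. Its log2 fold change was 0.37 (SE 0.0774, edgeR adjusted p = 0.0141), and without knockout replicate 2 the adjusted p was 0.0534. Kat2b, which encodes the histone acetyltransferase PCAF, fell from 2262, 2252, 2231 and 2478 to 1670, 1431 and 1628. The log2 fold change of Kat2b was -0.55 (SE 0.0744, edgeR adjusted p = 0.00315), and it passed in every alternative. The medians of both lists, 0.1 and 0.08, were small, and no corepressor or coactivator gene met the fold threshold of the study.

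Genes known to respond to thyroid hormone passed in both directions. Of the 10 tested of 11, 2 were lower, Mbp and Dio1, and 2 were higher, Dio3 and Camk4, with a median log2 fold change of -0.17, against 12.2% lower and 11.6% higher among all tested genes. Each of these genes also met the fold threshold of the study, which 3.08% of all tested genes met as lower and 3.97% as higher. Camk4, a calcium-dependent kinase gene also known from neurons, stood at 361, 384, 405 and 308 normalized counts in control libraries, against 1114, 1160 and 1128 with the knockout. Its log2 fold change was 1.64 (SE 0.103, edgeR adjusted p = 0.000108). Mbp, which encodes myelin basic protein and is also an oligodendrocyte marker, had a log2 fold change of -1.78. Klf9, Me1, Thrsp and Nrgn did not pass, and among the 8 genes Hr and Thrb, which belong to this list, did not either. With the ribosomal covariate Nrgn, which encodes the neuronal protein neurogranin, passed (log2 fold change 1.41, edgeR adjusted p = 0.0192), and 5 genes of the list did. Pcp2 had too few counts to be tested.

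Genes of retinoic acid supply, binding and breakdown had 3 of 10 tested members that passed, near the 23.8% of all tested genes, with a median of -0.4. Crabp1, which encodes a carrier of retinoic acid in the cytoplasm, rose from 14.9, 15.1, 13.7 and 9.36 normalized counts to 90.3, 88.7 and 62.5. The log2 fold change of Crabp1 was 2.59 (SE 0.253, edgeR adjusted p = 0.000745). Cyp26b1, whose enzyme breaks retinoic acid down, fell from 340, 358, 357 and 568 to 228, 217 and 190 (log2 fold change -0.95, SE 0.207, edgeR adjusted p = 0.0168), and did not pass with any 1 of the knockout libraries left out (0.0553 to 0.0656). Aldh1a2, a gene for retinoic acid synthesis known also from fibroblasts of the meninges, had 13, 8, 19 and 29 raw counts for the controls, against 4, 4 and 1 for the knockouts. It passed with an adjusted p of 0.0304 in edgeR, and not with the replicate block (0.0889) or without knockout replicate 2 or 3 (0.11 and 0.0924). Aldh1a2 was tested in only 13 of the 18 alternatives and passed in 10. Its 2 highest values were in control replicates 3 and 4, which had the highest fibroblast and mural markers, and the part of these cells was not tested. Aldh1a1, another gene for retinoic acid synthesis, missed the threshold (log2 fold change 0.37, edgeR adjusted p = 0.053) and passed with the replicate block (0.0342), in DESeq2 (0.0304), in limma voom (0.0476), with upper quartile factors (0.0462), with offsets for GC content (0.0415) and without control replicate 1 (0.025) or 2 (0.0493), which is 7 of 18 alternatives. Cyp26a1 was at 0 in all controls and was not tested.

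**Figure D4:**
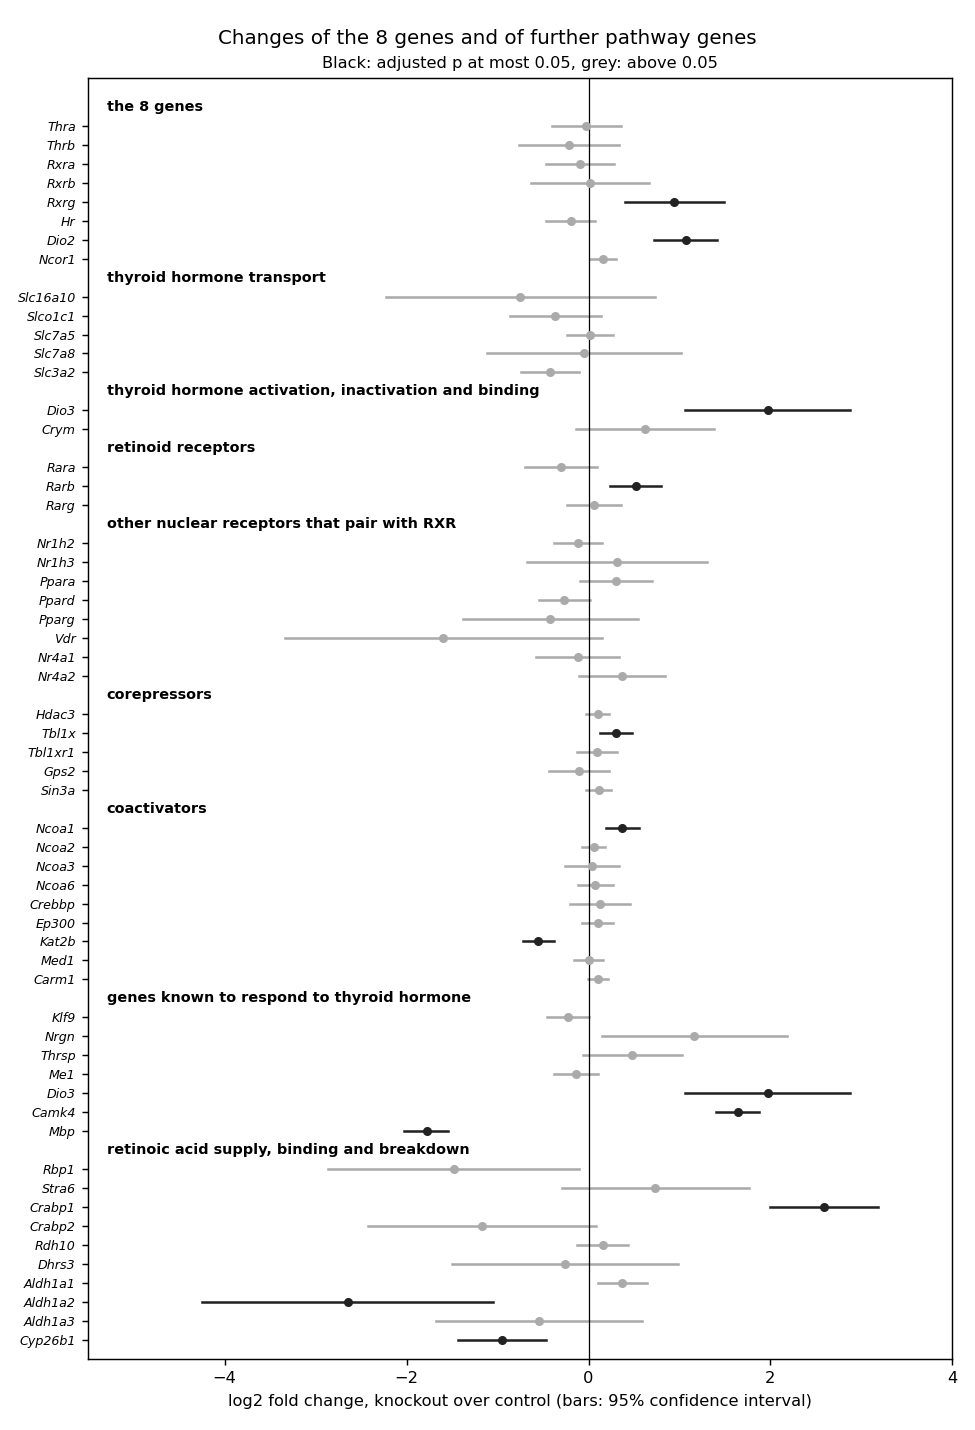
Log2 fold changes, knockout over control, with 95% confidence intervals (x axis) for the 8 genes and the other tested pathway genes by list, in black where the adjusted p was at most 0.05. Dio2 and Rxrg are the black points among the 8, and black points of both signs occur in the other lists. Dio3 stands in both lists it belongs to, and Dio1, with 3 counts in each knockout library, 1 transporter gene and 1 corepressor gene are not drawn.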

How the data were processed

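RNA from 7 cultures was sequenced in paired ends. Per the study's methods and the submitters' processing notes, the authors trimmed reads with Trimmomatic 0.36, mapped them with STAR 2.5.2b to GRCm38 and used Subread 1.5.2 for unique hits per gene in exons. The deposited values are these raw counts per gene, one table per library, with gene positions and exon lengths. The annotation release and strand setting are not given in the sources used here. Of 49315 gene identifiers, 48970 matched a symbol. No 2 libraries held identical counts, and a count of 0 allows up to 3 counts.

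The main test was that of edgeR 4.0.16 in R 4.3.3, with filterByExpr, TMM factors and a robust quasi-likelihood fit of group over 7 libraries. P-values were two-sided and adjusted by the Benjamini-Hochberg method over 18352 genes. Genes with an adjusted p of at most 0.05 passed, and the fold threshold of the study was a log2 fold change of 1 or more either way. Normalized counts are counts scaled to the mean effective library size, and values per kb divide them by exon length. Ratios used TPM computed from the counts and exon lengths. P-values measure the spread between these libraries, which may be technical in part. The fit was tried on simulated counts in which all genes had the same dispersion, the spread between libraries beyond counting error. These held no differences in ribosomal RNA or cell types between libraries, so the trial cannot show how the fit handles them.

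The 8 genes and all lists were chosen with earlier results of these data known. All 8 genes, Klf13, pathway genes that passed, the 3 nearest genes to each of the 8 that passed and genes overlapping them were named, and other list genes by value. The values of 1 transporter gene and 1 corepressor gene are not reported here. Across the 18352 genes, deviations from the group means correlated at 0.11, 0.46 and 0.17 between control and knockout libraries with the same replicate number and at -0.53 to 0.2 between those with different numbers, of which control 4 with knockout 1 (0.2), control 1 with knockout 3 (0.15) and control 4 with knockout 3 (0.14) were above 0.11 (genes are not independent replicates). The number, whose meaning the labels do not state, was fitted as a block in an alternative. Other alternatives were DESeq2 1.42.0 (Wald test and size factors), limma 3.58.1 voom, upper quartile factors, total counts, no filter, a minimum of 10 counts, the block, the ribosomal RNA share as a covariate, each library left out, control replicates 1 and 2 only and, chosen after seeing the data, offsets for GC content. Upstream sequences are from RefSeq.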

Additional observations from a re-analysis of the deposited data

Results flagged for a closer look

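The 4 control values of 22 genes, the 8 genes, Klf13 and the pathway genes that passed, were searched for a library far from the other 3 by Dixon's test, and 3 genes were past the 95% critical value, where chance gives about 1 in 20. Rxra stood at 3346 normalized counts in control replicate 3 and at 2207 to 2305 in the other controls. Kat2b stood at 2478 in control replicate 4 and at 2231 to 2262 in the others. Cyp26b1 stood at 568 in control replicate 4 and at 340 to 358 in the others.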

How the results depend on the processing

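Of the 8 genes, Dio2 passed in all 18 alternatives and Rxrg in 11, while Thra, Thrb, Rxra, Hr and Ncor1 passed in none and Rxrb in 1. Rxrg did not pass with the replicate block (0.88) or with control replicates 1 and 2 only (0.835), and its log2 fold changes with 1 library left out ran from 0.787 to 1.14. Rxrb passed with the ribosomal covariate, the share of ribosomal RNA (0.309) and had the other sign with the replicate block (-0.12) and with offsets for GC content (-0.0557). The block changed no other call among the 8 genes, and Thrb stood at 0.0297 there. Thra changed sign with upper quartile factors (0.0138), total counts only (0.0285) and the ribosomal covariate (0.124), and Rxra with control replicates 1 and 2 only (0.0923). With 1 library left out, the log2 fold changes ran from -0.22 to 0.13 for Thra, from -0.358 to 0.0391 for Thrb, from -0.159 to 0.0754 for Rxra and from -0.317 to 0.204 for Rxrb. The log2 difference of the ratio of Thra to Thrb ran from -0.14 to 0.32. The cause of these changes was not tested. The median log2 fold change of all genes lay between -0.0085 and 0.066 in all settings.

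Other pathway genes that changed sign did not pass in the setting named. Med1 (0.000369 in the reported fit) stood at -0.00507 in DESeq2, -0.00469 with its size factors, -0.00145 in limma voom, -0.00339 without a filter and -0.05 with the ribosomal covariate. Slc7a8 stood at 0.123 in limma voom, 0.0121 with upper quartile factors and 0.14 with the ribosomal covariate, which also gave -0.00797 for Tbl1xr1 and 0.0205 for Gps2. The replicate block gave -0.0478 for Slc7a5 and -0.0104 for Ncoa3. With control replicates 1 and 2 only, the values were 0.0915 for Slc16a10, -0.0276 for Slc7a5, 0.418 for Slc7a8, 0.088 for Pparg, -0.0236 for Crebbp, -0.0504 for Med1 and 0.364 for Dhrs3. With 1 library left out, they ran from -0.645 to 0.418 for Dhrs3, -0.0323 to 0.0519 for Med1, -0.0574 to 0.136 for Ncoa3, -0.271 to 0.0023 for Nr4a1, -0.57 to 0.0423 for Pparg, -0.00443 to 0.159 for Rarg, -1.35 to 0.0463 for Slc16a10, -0.0816 to 0.0847 for Slc7a5 and -0.413 to 0.486 for Slc7a8.

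Between 1254 and 2032 genes over the whole table passed as lower (2246 with all libraries), and 850 to 1843 as higher (2122), with 1 library left out. Those higher that also met the fold threshold of the study numbered 335 to 810 (729). With control replicates 1 and 2 only these were 1489, 1177 and 377. Of the pathway genes, 6 passed as lower and 9 as higher with all libraries, 2 to 5 and 4 to 9 with 1 library left out, and 3 as lower with control replicates 1 and 2 only, where 2 genes known to respond to thyroid hormone passed against 4. Among the 8 genes, Rxrg has the fewest raw counts, and Dio1 and Aldh1a2 rest on fewer still.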
